A study of Mus musculus with 336 samples.

Results

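Glutathione transferases and UDP-glucuronosyltransferases are the enzymes that attach glutathione or glucuronic acid to drugs, toxins, lipid peroxidation products, bilirubin and steroids so that a cell can export them. The genes described here were all those whose symbol is Gst followed by a letter and a number, or Ugt followed by a number, that all 3 deposited expression tables listed and that reached a table mean of 1 FPKM. FPKM counts sequenced fragments for each kilobase of a transcript, relative to all mapped fragments. Of 47622 genes listed in all 3 tables, 44 matched by symbol and 36 met the level rule, 21 glutathione transferases and 15 glucuronosyltransferases. By class these were 4 Gsta, 7 Gstm, 3 Gstp, 3 Gstt and 4 other Gst genes (Gstk1, Gsto1, Gsto2 and Gstz1), and 6 Ugt1, 7 Ugt2 and 2 Ugt3 genes. The members nearest the limit were Gsto2 at a highest table mean of 2.49 FPKM and Gstp2 at 5.39 FPKM. Just outside it were Ugt2b37 at 0.864 FPKM and Ugt1a2 at 0.693 FPKM, and the other genes left out were Gstt4, Ugt1a8, Ugt1a10, Ugt2a1, Ugt2a2 and Ugt8a.

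Soluble glutathione transferases are dimers whose subunits belong to classes named alpha (Gsta), mu (Gstm), pi (Gstp), theta (Gstt), zeta and omega, and the mouse Gstm genes lie side by side in a cluster. Glucuronosyltransferases sit in the endoplasmic reticulum membrane. Each Ugt1a gene has its own first exon, which encodes the substrate-binding part and is joined to a set of exons shared by the whole cluster, whereas most Ugt2 genes have complete exon sets of their own. Liver is the main site of both reactions, and many of these genes answer to the stress-sensing factor NRF2 or to xenobiotic receptors such as AHR, CAR and PXR.

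Messenger RNA was sequenced from C57BL/6 mice that were wild type (WT) or Bmal1-/- (KO), which lack a central activator of the circadian clock. Mouse skin fibroblasts (MSF), grown to confluency, and slices of adult liver of about 500 micron were each treated with 100 nM dexamethasone for 15 min, in both genotypes, and collected from 48 h later every 3 h over 3 days, giving 24 time points per genotype labelled CT00 to CT69. A shorter course of liver was labelled T00, T06, T12 and T24, with 3 libraries per genotype at each time. Its deposited table is named as a Dex course, while the shared treatment text names dexamethasone for fibroblasts and slices. Age, and what T00 was counted from, are not given for it. For the long courses the design text states n = 3 per time point, while 3 runs shared 1 column of values. The runs were taken as technical, so time points stand in for replicates. How many mice or fibroblast lines were used is not given in the sources used here, so p-values cover only how far these samples scatter, which may be technical spread.

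Sequencing depth is unknown, because the tables hold FPKM and not reads. Across the 24 short-course libraries, the library KO 2 at T24 stood apart, with a median correlation of 0.777 with the others. In the slices the libraries KO at CT09 and KO at CT39 had summed FPKM of 2121600 and 1989900. The deposited FPKM of Arntl, the gene of Bmal1, covered the whole gene and did not check the deletion. It ranged from 0.126 to 3.05 FPKM in WT and from 1.51 to 3.31 FPKM in KO short-course liver, from 3.08 to 7.61 and from 2.57 to 5.82 FPKM in slices, and from 8.79 to 11.9 and from 5.67 to 7.84 FPKM in fibroblasts. Alb, the albumin gene, was listed at 0 in some liver libraries, so a listed 0 can be a failed estimate. In tissue, fewer cells of a type and less RNA per cell cannot be told apart.

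Promoter windows of the members that the genotype results below turn on most are printed here to show the sequence at their start sites. Each window runs from 250 bases before to 50 bases after the start (300 bases) and was taken from RefSeq on GRCm38.p6, which held 32 of the 36 members. Gsta4, Gstt2, Ugt1a6b and Ugt3a2 were not in that table. Letters in capitals match a searched motif on either strand.
Gsta1, chr9:78230419-78230718, plus strand: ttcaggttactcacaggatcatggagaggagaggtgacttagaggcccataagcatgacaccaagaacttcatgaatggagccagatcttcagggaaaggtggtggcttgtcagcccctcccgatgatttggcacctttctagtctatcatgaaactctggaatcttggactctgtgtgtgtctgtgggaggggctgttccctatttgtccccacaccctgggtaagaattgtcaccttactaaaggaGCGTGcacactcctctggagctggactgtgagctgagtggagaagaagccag
Gstm2, chr3:107986371-107986670, minus strand: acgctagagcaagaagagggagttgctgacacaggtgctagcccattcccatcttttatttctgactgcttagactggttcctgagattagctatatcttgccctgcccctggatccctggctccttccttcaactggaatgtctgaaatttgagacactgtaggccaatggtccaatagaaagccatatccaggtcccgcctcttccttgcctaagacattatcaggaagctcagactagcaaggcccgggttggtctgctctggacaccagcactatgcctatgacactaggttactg
Gstm3, chr3:107969125-107969424, minus strand: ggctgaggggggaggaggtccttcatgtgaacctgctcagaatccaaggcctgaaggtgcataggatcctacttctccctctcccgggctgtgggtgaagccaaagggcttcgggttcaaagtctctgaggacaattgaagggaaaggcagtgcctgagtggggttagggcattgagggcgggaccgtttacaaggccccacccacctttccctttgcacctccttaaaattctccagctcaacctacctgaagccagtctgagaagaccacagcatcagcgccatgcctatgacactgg
Gstp1, chr19:4037863-4038162, minus strand: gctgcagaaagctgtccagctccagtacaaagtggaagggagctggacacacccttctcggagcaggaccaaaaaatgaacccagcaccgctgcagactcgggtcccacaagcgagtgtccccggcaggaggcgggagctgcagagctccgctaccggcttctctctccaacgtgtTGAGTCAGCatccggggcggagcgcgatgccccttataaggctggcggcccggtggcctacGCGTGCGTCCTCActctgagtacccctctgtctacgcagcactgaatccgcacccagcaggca
Ugt1a9, chr1:88070529-88070828, plus strand: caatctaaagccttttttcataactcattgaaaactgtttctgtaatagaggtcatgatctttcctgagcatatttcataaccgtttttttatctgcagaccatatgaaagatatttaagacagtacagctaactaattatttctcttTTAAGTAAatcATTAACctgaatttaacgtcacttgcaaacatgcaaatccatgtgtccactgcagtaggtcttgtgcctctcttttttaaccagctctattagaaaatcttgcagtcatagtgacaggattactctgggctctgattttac
Ugt2b1, chr5:86926454-86926753, minus strand: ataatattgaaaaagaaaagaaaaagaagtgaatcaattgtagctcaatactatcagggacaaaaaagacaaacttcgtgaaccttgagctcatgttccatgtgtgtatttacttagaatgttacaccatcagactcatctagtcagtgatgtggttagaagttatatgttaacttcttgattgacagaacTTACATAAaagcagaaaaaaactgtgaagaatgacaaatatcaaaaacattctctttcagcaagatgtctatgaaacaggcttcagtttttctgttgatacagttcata
Ugt1a6a, chr1:88134559-88134858, plus strand: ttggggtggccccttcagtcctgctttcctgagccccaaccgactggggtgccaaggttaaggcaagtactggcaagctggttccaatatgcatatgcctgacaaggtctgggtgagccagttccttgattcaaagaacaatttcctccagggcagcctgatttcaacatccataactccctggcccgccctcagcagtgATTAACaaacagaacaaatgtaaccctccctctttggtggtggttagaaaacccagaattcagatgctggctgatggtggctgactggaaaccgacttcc
The motifs searched were the antioxidant response core in the forms TGACNNNGC and TGAGNNNGC, the E-box CACGTG, the D-box TTANGTAA, the xenobiotic response core GCGTG, the HNF1-type motif GTTAAT and the TATA box TATAAA. The D-box was in the windows of 2 members, Ugt1a9 and Ugt2b1, and in 2.32% of all 32851 windows. The printed Ugt1a9 window held it 102 bases before the start, and the Ugt2b1 window 59 bases before. The form TGACNNNGC was in 3 members and 12.4% of windows, and TGAGNNNGC in 9 members, Gstp1 among them, and 17.6% of windows. The Gstp1 window held TGAGNNNGC 74 and 9 bases before the start, and the nearer match shared 1 base with a GCGTG. The GCGTG core was in 7 members, Gsta1 among them, and 32.4% of windows, GTTAAT in 6 members, Ugt1a9 and Ugt1a6a among them, and 7.1%, TATAAA in 5 members and 13.6%, and CACGTG in 0 members and 7.15%. The Gstm2 and Gstm3 windows held none of these letters.

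The classes differed in where they were expressed. Gstm1, the main mu-class subunit of mouse liver, had the highest mean of the members in all 3 tables, 296 FPKM in fibroblasts, 1537 in slices and 1328 in short-course liver. Gsta3 had a mean of 657 FPKM in short-course liver, 274 in slices and 2.18 in fibroblasts. All 7 Ugt2 and both Ugt3 genes stayed under 1 FPKM in fibroblasts, and Ugt2b1 and Ugt2b5, which had means of 229 and 232 FPKM in short-course liver, were listed at 0 there. In the other direction, Ugt1a7c had a mean of 86.7 FPKM in fibroblasts, 5.68 in slices and 1.17 in short-course liver. Gsta1 was at 109.9 FPKM in slices and 3.01 in short-course liver. These levels come from tables normalized separately and were not tested. Of the 36 members, 19 passed the filter of a mean of 1 FPKM in fibroblasts, 35 in slices and 34 in short-course liver, with 18 passing in all 3.

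Near-identical sequence limits some members. Of the 50-base windows (the length of the reads) of each member's longest coding transcript, 100% for Ugt1a6a, 80.7% for Ugt1a6b, 69.3% for Ugt1a7c, 64% for Ugt1a5, 62% for Ugt1a9 and 58.2% for Ugt1a1 also occur in another gene. The shares were 89.7% for Gsta1, 64.2% for Gsta2, 72.6% for Gstp2, 62.3% for Gstp1, 41.7% for Ugt2b5, 37.4% for Ugt2b38, 28.8% for Gstm3, 11.5% for Gstm6 and 9.36% for Gstm2, and none for Gsta3, Gsta4, Gstm7 and Ugt2b1. Values of the Ugt1a genes and of Gsta1, Gsta2, Gstp1, Gstp2, Ugt2b5, Ugt2b38 and Gstm3 are uncertain as to which copy the reads came from.

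In short-course liver, 4 mu-class genes were higher and 3 alpha-class genes lower in KO than in WT. With limma on log2(FPKM + 1) and Benjamini-Hochberg adjustment over 12547 genes, 12 of 34 members tested differed between genotypes over the 4 times, where 18.7% of all genes did. Gstm2, Gstm3, Gstm6, Gstm7, Ugt2b1 and Ugt3a2 were higher in KO (6 members; 7.75% of all genes were higher) and Gsta1, Gsta2, Gsta4, Gstp1, Gstt2 and Ugt1a9 were lower (6 members; 11% of all genes were lower). The median difference of the 34 members was 0.08 and that of all genes -0.01 on the log2 scale. Of the mu class, 4 of 7 were higher and 0 lower, and of the alpha class 0 of 4 were higher and 3 lower.

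**Figure D1:**
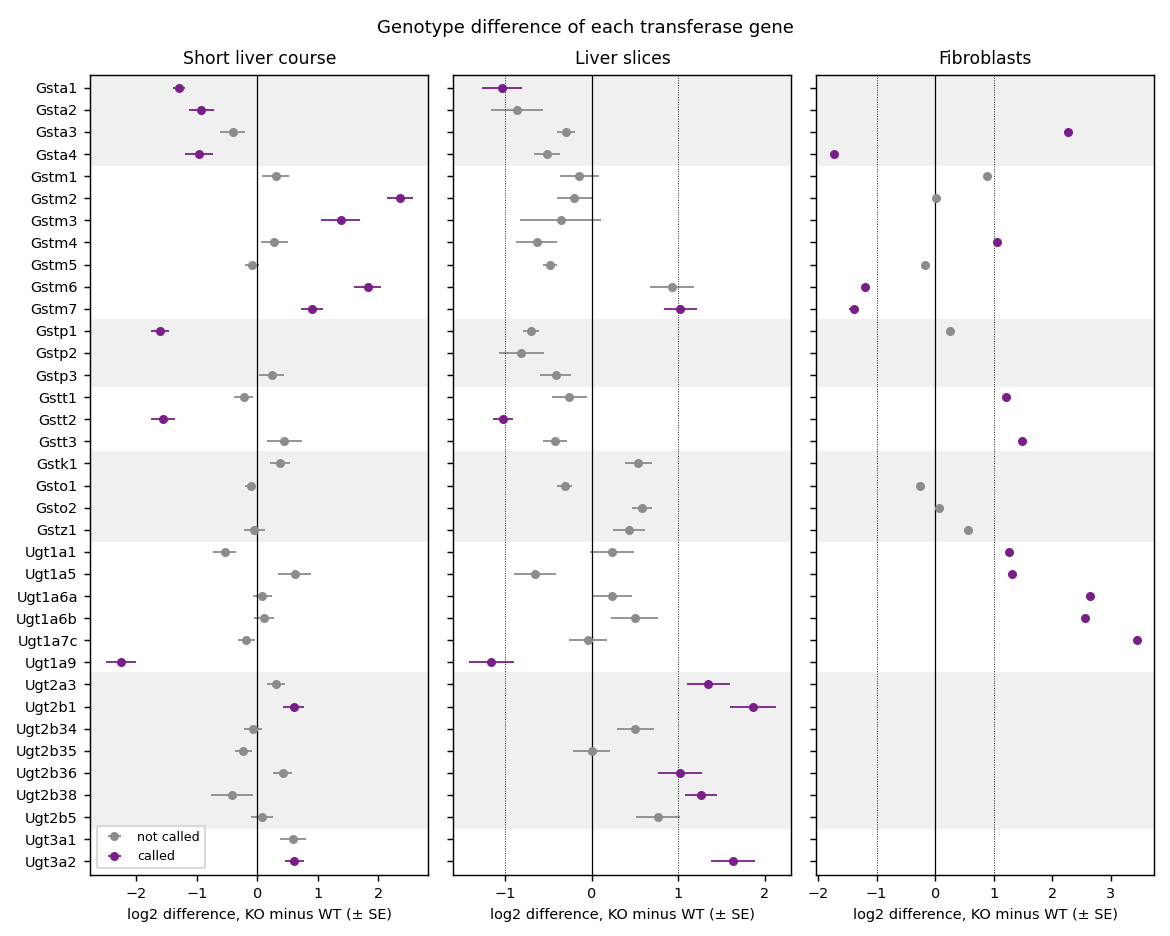
Difference between KO and WT (log2 of FPKM + 1, x axis) with its standard error for every member tested (y axis), in short-course liver, slices and fibroblasts, on x axes that differ in range. Purple points passed the test and grey points did not, and dotted lines mark the size limit of 1 used in slices and fibroblasts. Gstm2 lies farthest right in the short course at 2.36 and Ugt1a9 farthest left at -2.26, while Ugt1a7c lies farthest right in fibroblasts at 3.44.

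The mu-class genes lie in a cluster on chromosome 3 from 107895821 to 108044894 (GRCm38). Gstm2, a mu-class subunit gene, had 9.76, 16.7 and 19.4 FPKM in the 3 WT libraries at T00 and 181, 169 and 169 FPKM in KO. At T24 it had 10.7, 14.6 and 11.8 FPKM in WT and 53.7, 14.3 and 36.5 FPKM in KO. The genotypes did not overlap at T00, while at T24 the library KO 2 lay within the WT range. Its difference over the 4 times was 2.36 ± 0.21 (log2, SE, adjusted p = 3.25e-07), and the ratio of mean FPKM was 6.45. Gstm6, a neighbouring mu-class gene, had 43.2, 77.3 and 76.1 FPKM in WT and 329.8, 353 and 345 FPKM in KO at T00. All 3 KO libraries were above all WT libraries at that time, and the difference over the 4 times was 1.82 ± 0.22 (adjusted p = 9.29e-06). Gstm3, of the same class, had 9.24, 19.7 and 19.5 FPKM in WT and 131, 207 and 224 FPKM in KO at T00, a ratio of means of 11.6 with no overlap. At T24 the order had turned, with 99.0, 26.7 and 79.2 FPKM in WT and 47.0, 9.13 and 28.4 FPKM in KO, overlapping. Over the 4 times Gstm3 was higher by 1.38 ± 0.32 (adjusted p = 0.00576). Gstm7 ranged from 5.76 FPKM through a median of 17.8 to 32.0 in the 12 WT libraries and from 5.73 through 40.7 to 77.9 FPKM in KO, and the ranges overlapped. It was higher by 0.90 ± 0.18 (adjusted p = 0.00196). Gstm1, Gstm4 and Gstm5 did not pass the test, although Gstm1 was at 867, 1555 and 1562 FPKM in WT and 2152, 2730.5 and 2627 FPKM in KO at T00.

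Gsta1, an alpha-class subunit gene on chromosome 9 (78230656 to 78242684), was lower in KO at every time. It had 0.807, 1.43 and 1.56 FPKM in WT and 0.403, 0.139 and 0.221 FPKM in KO at T00, and 8.81, 9.52 and 12.7 against 5.00, 6.49 and 4.95 FPKM at T24. The genotypes did not overlap within either of these times. At T12 the WT libraries had 5.23, 4.10 and 4.73 FPKM, while 1 KO library was listed at 0 and the others had 0.213 and 0.160 FPKM. The difference over the 4 times was -1.29 ± 0.10 (adjusted p = 3.39e-08), and on this scale it is understated at such low levels. Gsta2, its close copy, ranged from 2.13 through a median of 11 to 28.1 FPKM in WT and from 1.37 through 5.16 to 16.3 FPKM in KO, with a difference of -0.92 ± 0.21 (adjusted p = 0.00474). Gsta4, whose product conjugates the lipid peroxidation product hydroxynonenal, ranged from 15.9 through 41.5 to 88.4 FPKM in WT and from 8.70 through 19.9 to 41.1 FPKM in KO. Both overlapped, and the difference for Gsta4 was -0.96 ± 0.23 (adjusted p = 0.00693). Gsta3, the most abundant alpha-class gene here, did not pass, at medians of 675 FPKM in WT and 622 FPKM in KO.

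Gstp1, the main pi-class gene (chromosome 19, 4035407 to 4037985), had no overlap over the whole course. It had 596, 697 and 782 FPKM in WT and 206, 135 and 171 FPKM in KO at T00, and 354, 260.1 and 343 against 136, 74.4 and 74.1 FPKM at T24. The lowest WT library, at 260.1 FPKM, lay above the highest KO library, at 227 FPKM. Its difference was -1.61 ± 0.15 (adjusted p = 7.35e-07), with WT 3.03-fold higher in mean FPKM. Gstt2, a theta-class gene, had 16, 32.3 and 34.8 FPKM in WT and 8.69, 8.29 and 13.4 FPKM in KO at T00, and 6.05, 8.98 and 10.9 against 1.68, 1.42 and 1.32 FPKM at T24. KO libraries were below WT libraries at both times, and the difference was -1.56 ± 0.20 (adjusted p = 1.68e-05). Of the theta class 1 of 3 was called, and of the other Gst genes 0 of 3.

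Ugt1a9, which glucuronidates phenols and fatty acids, had the largest negative difference of the members tested. It starts at base 88070800 of chromosome 1, in the Ugt1a cluster. It had 45.4, 35.4 and 44.7 FPKM in WT and 2.90, 6.85 and 8.29 FPKM in KO at T00, and 7.84, 9.6 and 16.6 against 1.36, 2.97 and 3.04 FPKM at T24. The genotypes were apart at both times, and over the course only the lowest WT value, 7.84 FPKM, lay inside the KO range, which reached 8.29 FPKM. The difference was -2.26 ± 0.25 (adjusted p = 3.46e-06), with WT 5.83-fold higher in mean FPKM. None of the other 5 Ugt1 members tested passed. Ugt2b1, a steroid- and bile-acid-conjugating family gene on chromosome 5 (86916638 to 86926530), had 287, 340.3 and 333 FPKM in WT and 606, 461 and 433 FPKM in KO at T00. At T24 the values overlapped, at 69.1, 113 and 77.4 against 149, 79.2 and 258 FPKM, and over the 4 times Ugt2b1 was higher by 0.60 ± 0.18 (adjusted p = 0.0221). Ugt3a2, of a family that uses other sugar donors, ranged from 25.5 through 66.4 to 129.8 FPKM in WT and from 31.7 through 100.3 to 217 FPKM in KO, and was higher by 0.61 ± 0.16 (adjusted p = 0.00991). The count changed with how libraries were counted. With 1 mean per genotype and replicate number, 6 members remained called (Gsta1, Gstm2, Gstm6, Gstp1, Gstt2 and Ugt1a9), and Gsta2, Gsta4, Gstm3, Gstm7, Ugt2b1 and Ugt3a2 were not.

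**Figure D2:**
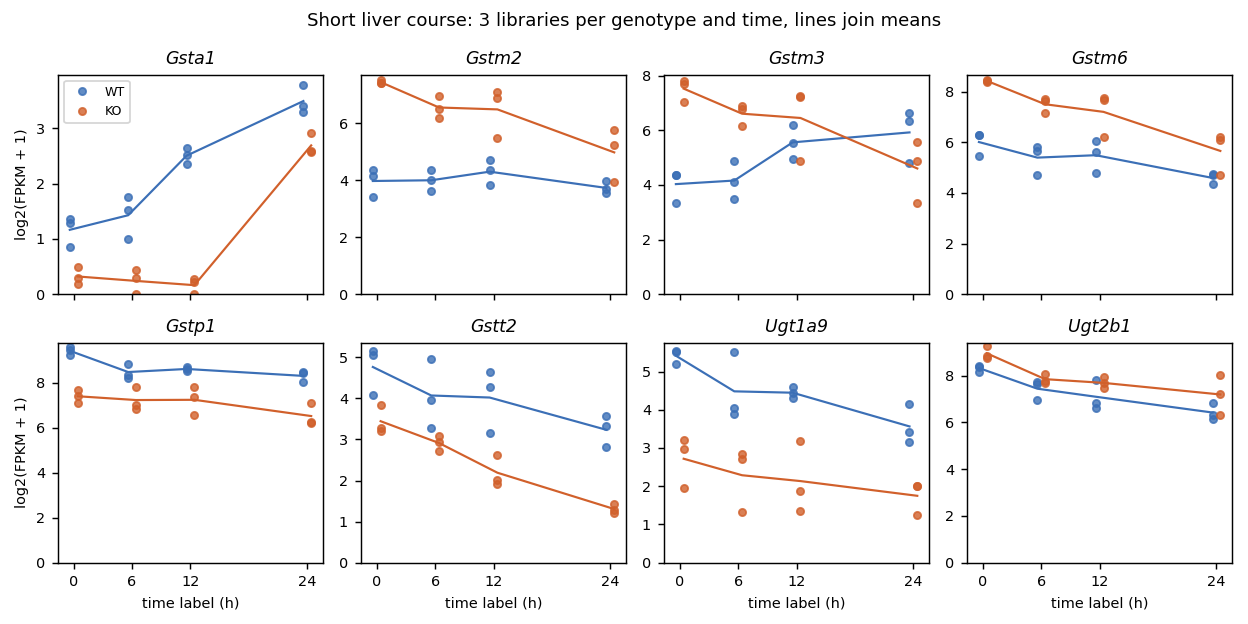
Expression (log2 of FPKM + 1, y axis) against the time label (x axis) for 8 members in short-course liver, with 3 libraries per genotype and time as points and lines joining their means. Gstp1 and Ugt1a9 run lower in KO at each time, Gstm2 runs higher, and the Gstm3 lines cross between T00 and T24.

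At single times, with 3 libraries against 3, 7 members differed at T00 (4.45% of all genes), 5 at T06 (1.67%), 6 at T12 (2.4%) and 6 at T24 (17.9%). Gsta1, Gstm2, Gstp1 and Ugt1a9 were called at all 4 times, Gstm6 at 3 and Gstt2 at 2. Gstm3 and Gstm7 were called at T00 alone, and Gstp3 at T24 alone. At T00 the Gstm3 difference was 3.49 ± 0.65 (adjusted p = 0.00259) and that of Gstm2 3.47 ± 0.43 (adjusted p = 3.92e-05). Gstp3, a pi-class gene, was lower in KO at T24 by -1.31 (adjusted p = 0.0401), and without the library KO 2 at T24 the value was -0.92 (adjusted p = 0.211). Without that library 9 members were called at T24 and 16 over the course. The counts moved with single replicates: without KO replicate 3 they were 1 at T06, 1 at T12 and 2 at T24, without WT replicate 2 they were 2, 1 and 3, without WT replicate 3 they were 2, 1 and 2, and without WT replicate 1 the count at T06 was 3. Summed levels of liver zone markers also differed between genotypes at T00. Pericentral hepatocyte markers had a summed level of 2159 to 4129 FPKM in WT and 4936 to 6239 FPKM in KO. Of 10 tested, 7 were higher in KO, where 2.58% of all genes were. Periportal markers had 4632 to 4922 FPKM in WT and 3786 to 4397 FPKM in KO at T00, without overlap. Of 12 single periportal markers, 0 were called higher and 1 lower, where 1.86% of all genes were lower. The part of both in the results at T00 was not tested.

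Over the course most members fell in both genotypes. An F test over the 4 times called 27 of 34 members in WT (64.4% of all genes) and 27 of 34 in KO (72.2%). From T00 to T24, 27 members fell in WT (31.5% of all genes fell) and 28 in KO (35.8%), while 3 rose in WT (29.8% of all genes rose) and 1 in KO (31.7%). The median change of the 34 members was -1.61 in WT and -1.75 in KO, against 0.00 and -0.01 for all genes. All 7 Ugt2 genes fell in WT and 6 of 7 in KO, by medians of -1.90 and -1.74. Ugt2b36 changed by -2.31 ± 0.31 in WT (adjusted p = 5.64e-06) and Ugt2b5 by -2.23 ± 0.37 (adjusted p = 4.58e-05). Gstz1, a tyrosine-breakdown enzyme gene of the zeta class, changed by -3.05 ± 0.34 in KO (adjusted p = 3.47e-07) and -1.99 ± 0.34 in WT (adjusted p = 6.32e-05). Gsta3 had 809, 1232 and 1233 FPKM at T00 and 307, 366 and 339.7 FPKM at T24 in WT, and 992, 1313 and 1236 against 225, 118 and 195 FPKM in KO, with no overlap between times in either. All 3 theta-class genes fell in both genotypes. The rises were Gsta1 in both genotypes, by 2.33 ± 0.19 in WT (adjusted p = 1.8e-08) and 2.37 ± 0.19 in KO (adjusted p = 1.1e-08), and Gstm3 and Gstm5 in WT. Gstm3 rose by 1.89 ± 0.65 in WT (adjusted p = 0.0165) and fell by 2.92 on the log2 scale in KO (SE 0.65, adjusted p = 0.000578). Without WT replicate 2, or without WT replicate 3, the count of the time test in WT was 15.

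**Figure D3:**
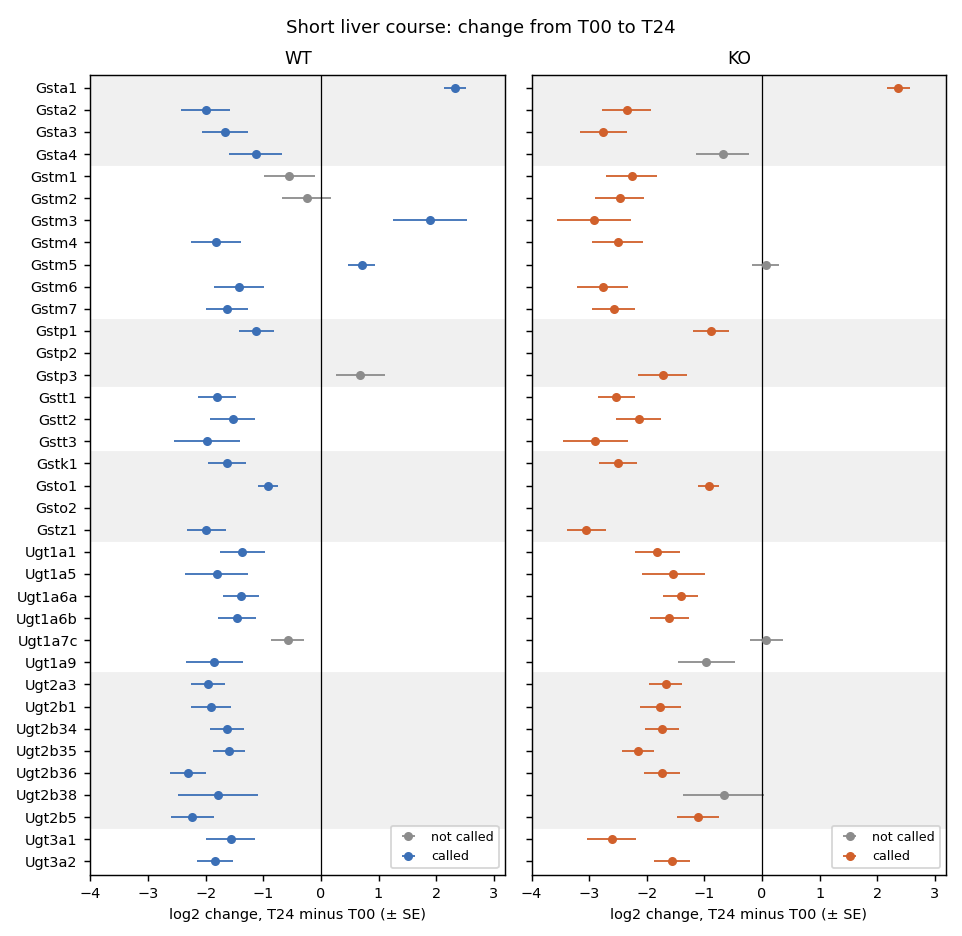
Change from T00 to T24 (log2 of FPKM + 1, x axis) with its standard error for each member tested (y axis), in WT and in KO short-course liver. Most points lie left of 0 in both panels, Gsta1 lies right of 2 in both, and Gstm3 lies at 1.89 in WT and -2.92 in KO.

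The courses of 2 of 34 members differed between genotypes in an F test of genotype by time (1.75% of all genes), Gsta1 (adjusted p = 0.0123) and Gstm3 (adjusted p = 0.0279), and 5 had an unadjusted p under 0.05, as did 18.3% of all genes. For single times the difference of the change from T00 to T24 was called for 3 members (5.1% of all genes): Gstm3 at -4.81 ± 0.91 (adjusted p = 0.00652), Gstp3 at -2.40 ± 0.60 (adjusted p = 0.0297) and Gstm2 at -2.22 ± 0.60 (adjusted p = 0.04). For T12 it was called for 1 member (0.279% of all genes), Gsta1, at -1.50 ± 0.27 (adjusted p = 0.021). By T12 all 3 WT libraries of Gsta1 lay above the T00 range and none of the KO libraries did. All 7 mu-class estimates for T24 were under 0, with a median of -1.35. Without the library KO 2 at T24 the Gstm3, Gstp3 and Gstm2 values were -4.18, -2.01 and -1.70, the F test gave Gstm3 an adjusted p of 0.0849, and 1 member, Gsta1, was called. Without any 1 of the WT replicates 1, 2 or 3, or without KO replicate 3, the F test called 0 members, with adjusted p from 0.0529 to 0.135 for Gsta1.

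Levels of liver markers moved over the same hours. Summed hepatocyte markers were 63050.4 to 70161 FPKM in WT and 58746 to 86989.9 FPKM in KO at T00, and 29908 to 39648 and 15272 to 34962 FPKM at T24. Of 18 hepatocyte markers, 14 fell and 1 rose in WT (median -1.10) and 17 fell and 0 rose in KO (median -1.51). Pericentral markers had a median change of -1.08 in WT and -3.42 in KO, with 9 of 10 falling in KO. Their part in the fall of the transferases was not tested. Other conjugation genes did likewise: of 18 sulfotransferases and related enzymes, 16 fell and 1 rose in WT (median -1.56) and 18 fell in KO (median -2.64). Among NRF2 targets other than transferases more rose than fell. Of 22 tested, 13 rose and 6 fell in WT (median 1.11) and 14 rose and 5 fell in KO (median 1.52). Their summed level went from 6361 to 8016 FPKM at T00 to 3454 to 4017 FPKM at T24 in WT, and from 6902 to 9048 FPKM to 3727 to 4579.5 FPKM in KO. Hmox1, the heme oxygenase gene, rose by 5.86 in WT and 7.59 in KO on the log2 scale, and Nqo1, a quinone reductase gene, by 1.29 and 1.54, both named after their values were seen.

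In liver slices, Ugt2 genes and Ugt3a2 were higher in KO, and Gsta1, Gstt2 and Ugt1a9 were lower. A member was called here at an adjusted p under 0.05 and a log2 difference of at least 1, and 9 of 35 were called (5.23% of all genes), with Gstm7, Ugt2a3, Ugt2b1, Ugt2b36, Ugt2b38 and Ugt3a2 higher in KO (6 members; 1.18% of all genes were higher) and Gsta1, Gstt2 and Ugt1a9 lower (3 members; 4.05% were lower). By adjusted p alone, 26 of 35 passed, where 72.8% of all genes did. The median of all genes was -0.34, that of the 21 Gst genes -0.36 and that of the 7 Ugt2 genes 1.01, with 6 of 7 above 0. Rescaling by median-of-ratios factors moved the median of all genes by 0.36, to 0.00, and the split of 6 higher and 3 lower became 8 higher and 0 lower. The shares of all genes called after rescaling are not given here, so the rescaled split has no background beside it. Rescaled, Ugt2b5 (1.17) and Gstm6 (1.31) passed the size limit, and Gstt2 (-0.65), Gsta1 (-0.64) and Ugt1a9 (-0.97) did not. Directions of the lower genes were the same under both scalings.

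Ugt2b1 ranged from 2.16 through a median of 14 to 76.3 FPKM over the 24 WT time points and from 5.16 through 50.8 to 659 FPKM in KO. The ranges overlapped, with KO reaching higher, and the difference was 1.86 ± 0.27 (adjusted p = 6.76e-08). Ugt3a2 ranged from 0.730 through 6.60 to 36.1 FPKM in WT and from 2.05 through 21.7 to 289 FPKM in KO, a difference of 1.63 ± 0.25 (adjusted p = 3e-07). Ugt2a3, a family gene known from liver and gut, ranged from 0.958 through 7.47 to 36.4 FPKM in WT and from 1.99 through 21.5 to 217 FPKM in KO. Its difference was 1.34 ± 0.25 (adjusted p = 7.26e-06), and again the ranges overlapped. Ugt2b36 had medians of 30.1 and 57.7 FPKM and a difference of 1.01 ± 0.25 (adjusted p = 0.000475), close to the size limit, and Ugt2b38 medians of 1.03 and 3.75 FPKM and a difference of 1.26 ± 0.19 (adjusted p = 1.03e-07). Gsta1 ranged from 26.0 through 138 to 371 FPKM in WT and from 4.81 through 62.4 to 187 FPKM in KO, a difference of -1.04 ± 0.23 (adjusted p = 9.39e-05). Gstt2 ranged from 6.52 through 19.3 to 35.3 FPKM in WT and from 4.24 through 9.17 to 14.2 FPKM in KO, a difference of -1.02 ± 0.12 (adjusted p = 3.16e-10). Ugt1a9 was listed at 0 in the lowest library of each genotype and had medians of 1.88 FPKM in WT and 0.364 FPKM in KO, with a difference of -1.16 ± 0.26 (adjusted p = 0.000111). Gstm7 had medians of 2.22 and 6.10 FPKM and a difference of 1.02 ± 0.19 (adjusted p = 8.13e-06). No member was without overlap in the slices. In both liver courses Gsta1, Gstt2 and Ugt1a9 were lower in KO and Gstm7, Ugt2b1 and Ugt3a2 higher, which is 6 of the 9 called in slices and 6 of the 12 called in the short course. The share of all genes called in the same direction in both courses was not counted. When the slices were rescaled, Gsta1, Gstt2 and Ugt1a9 did not pass the size limit there. Without the 6 slice libraries of lowest correlation with the rest, KO CT09 and KO CT39 among them, 8 members were called: Gstm7 (0.78) and Ugt2b36 (0.71) were under the size limit and Gsta2 (-1.16) passed it.

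**Figure D4:**
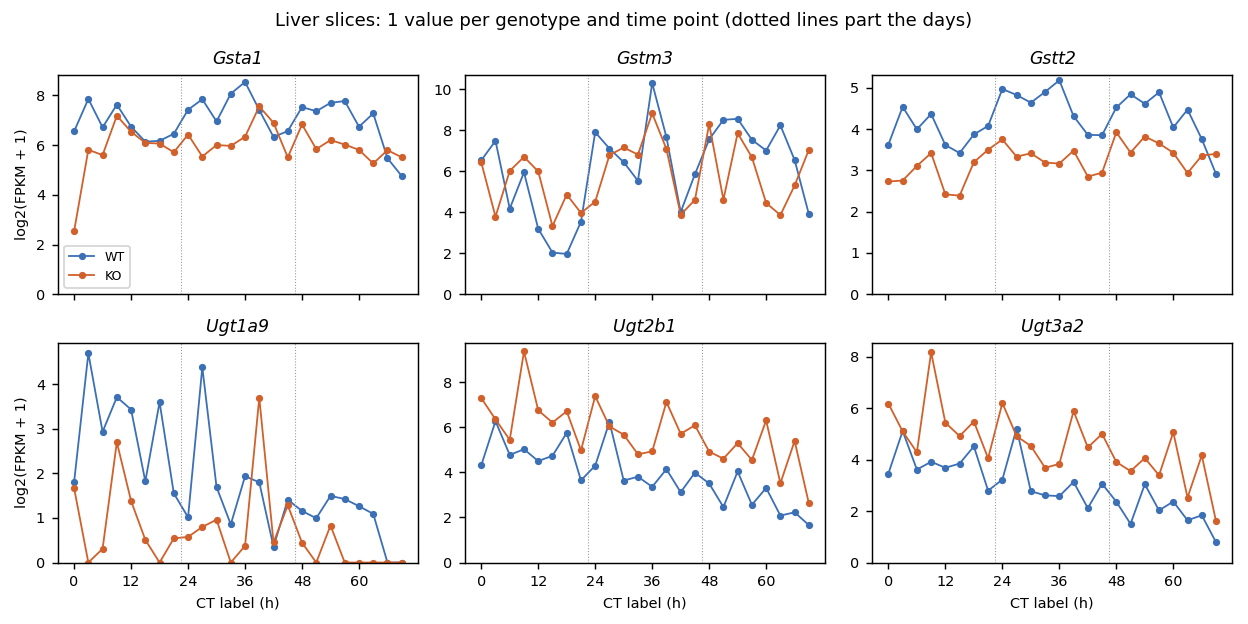
Expression (log2 of FPKM + 1, y axis) against the time label (CT, in hours, x axis) for Gsta1, Gstm3, Gstt2, Ugt1a9, Ugt2b1 and Ugt3a2 in liver slices, 24 time points per genotype, with dotted lines between days. Ugt2b1 and Ugt3a2 sit higher in KO and fall over the days in both genotypes, and Gstm3 rises in WT.

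Cell type markers also differed in the slices. Macrophage markers were lower in KO, with 10 of 11 called and summed levels of 219 to 5828 FPKM (median 1073) in WT and 77.4 to 536 FPKM (median 184) in KO. Of 18 hepatocyte markers 5 were higher and 1 lower (median 0.46), with summed levels of 3367 to 58551 FPKM (median 23303) in WT and 6308 to 189856 FPKM (median 26276) in KO. Of 13 fibroblast and stellate markers 6 were lower. Their part in the higher Ugt2 levels was not tested.

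Over the 3 days of slice culture, days 1 and 3 were compared as 8 time points each. In WT, 3 members rose (2.88% of all genes) and 5 fell (4.83%), and in KO 0 rose (1.78%) and 8 fell (3.8%). Gstm3 rose in WT by 2.87 ± 0.83 (adjusted p = 0.0259), from a day median of 13.8 to 185 FPKM. Gstm1 rose by 1.25 (adjusted p = 0.0417), from 700.1 to 2653 FPKM, and Gstm2 by 1.13 (adjusted p = 0.0259), from 17.5 to 49.2 FPKM. All 3 are mu-class genes. Ugt2b1 fell by 2.15 on the log2 scale in WT (adjusted p = 0.00567), from 26.1 to 4.71 FPKM, and by 1.99 in KO (adjusted p = 0.0122), from 92.4 to 26.4 FPKM. Ugt2a3, Ugt2b5 and Ugt3a2 also fell in both genotypes, Ugt1a9 in WT and Gsta4, Ugt1a5, Ugt2b36 and Ugt2b38 in KO. The genotype difference of these changes was called by limma for 0 of 35 members (0% of all genes), with 3 of 35 at an unadjusted p under 0.05 and 1083 of 14566 genes. The median change of hepatocyte markers over the same days was -0.98 in WT and -1.19 in KO, and of 11 macrophage markers 8 rose in WT (median 1.67).

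In fibroblasts, KO differed from WT in 12 of 19 members (16% of all genes), 9 higher (6.21% of all genes) and 3 lower (9.82%), by the same rule of adjusted p and size. By adjusted p alone 17 of 19 passed (81.2% of all genes). Of the called members, Gsta3, Ugt1a1, Ugt1a5 and Ugt1a6b reached the filter of 1 FPKM only through KO and Gstm6 only through WT, so their calls are in part fixed by the filter. Among the 14 members with a mean of 1 FPKM or more in both genotypes, counted after seeing the data, 5 were higher and 2 lower, where 13% of all such genes were called in either direction. Those higher were Ugt1a6a, Ugt1a7c, Gstt1, Gstt3 and Gstm4, and those lower were Gsta4 and Gstm7. Of the 50-base windows of Ugt1a6a, 100% also occur in Ugt1a7c, so these are not 2 separate members. All 5 Ugt1 genes tested are among the 9 higher and share exons, so the counts beside the shares of all genes are not of separate genes. The median difference of all genes tested was -0.04. With the genotypes grown as separate cultures of an unstated number of lines, genotype and culture cannot be told apart.

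Ugt1a6a, which glucuronidates planar phenols, ranged from 22.7 through a median of 28.3 to 35.9 FPKM in WT and from 141 through 184 to 208 FPKM in KO. Ugt1a7c, a neighbouring Ugt1a gene, ranged from 9.68 through 14.2 to 17.7 FPKM in WT and from 130 through 160 to 183 FPKM in KO. Neither overlapped, and the differences were 2.65 ± 0.03 (adjusted p = 1.09e-44) and 3.44 ± 0.04 (adjusted p = 5.85e-48). Since most of their windows occur in other genes too, the levels of the single genes are uncertain, and the sum over the Ugt1 members was 35.2 to 52.3 FPKM in WT and 287 to 402 FPKM in KO. Ugt1a6b ranged from 0.418 through 0.927 to 1.66 FPKM in WT and from 8.70 through 10.2 to 12.8 FPKM in KO. Ugt1a1, the bilirubin-conjugating enzyme gene, had medians of 0.191 FPKM in WT and 1.67 FPKM in KO, and Ugt1a5 of 0.220 and 2.06 FPKM. Gsta3 had a median listed at 0 and a highest value of 0.145 FPKM in WT, and ranged from 1.73 through 3.71 to 9.65 FPKM in KO, through which alone it passed the filter, with a difference of 2.27 ± 0.05 on the log2(FPKM + 1) scale (adjusted p = 1.95e-36). Gstt3 ranged from 2.90 through 3.96 to 5.89 FPKM in WT and from 11.4 through 12.9 to 15.3 FPKM in KO, a difference of 1.48 ± 0.04 (adjusted p = 1.29e-32). Gstt1 had medians of 6.27 and 14.9 FPKM and Gstm4 of 3.42 and 8.34 FPKM.

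Gsta4 ranged from 8.21 through 10.3 to 14.8 FPKM in WT and from 1.81 through 2.39 to 3.74 FPKM in KO. The ranges did not overlap and the difference was -1.72 ± 0.04 (adjusted p = 1.98e-33). Gstm7 ranged from 4.33 through 6.35 to 8.29 FPKM in WT and from 0.573 through 1.70 to 3.14 FPKM in KO, a difference of -1.39 ± 0.08 (adjusted p = 7.43e-21). Gstm6 reached the filter only through WT, so its call is in part fixed by the filter. It had medians of 2.71 and 0.597 FPKM and a difference of -1.19 ± 0.06 (adjusted p = 1e-21). Both mu-class genes were higher in KO in short-course liver, and whether the tissues differ was not tested, as the tables were normalized separately. Gsta4 was lower in both. Gstm1 (0.88), Gstz1 (0.56), Gstp1 (0.25) and Gsto1 (-0.26) passed the adjusted p but not the size limit, and Gstm2 was at 0.01. In all, 15 of 19 members had no overlap between genotypes, 11 with KO above and 4 with KO below. The share of all genes without overlap was not counted, and 81.2% of all genes passed the adjusted p alone. Among the members without overlap, Gsta3, Ugt1a1, Ugt1a5 and Ugt1a6b reached the filter only through KO and Gstm6 only through WT.

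**Figure D5:**
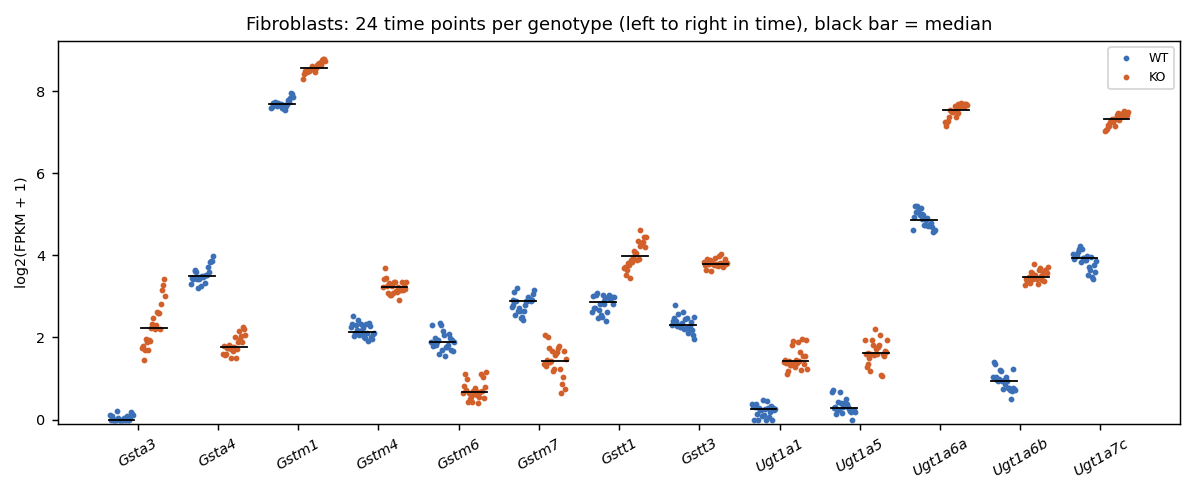
Expression (log2 of FPKM + 1, y axis) of 13 members in fibroblasts, each with the 24 time points of WT and of KO as points and the median as a black bar. The KO points lie above all WT points for Ugt1a6a, Ugt1a6b and Ugt1a7c and below them for Gsta4, Gstm6 and Gstm7.

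Ahr, the receptor gene of the Ugt1a6 inducers, was at 0.635 to 1.43 FPKM in WT and 5.09 to 9.36 FPKM in KO fibroblasts, a log2 difference of 2.00. The summed level of its list, the xenobiotic receptors and their P450 targets, overlapped, at 205 to 243 FPKM in WT and 194 to 235 FPKM in KO. Ahr is 1 of 20 genes on that list, and how many of the others were higher or lower in KO fibroblasts is not given here. Of 23 NRF2 targets 4 were higher and 3 lower, against 16% of all genes called, and their summed level was 971 to 1079.7 FPKM in WT and 1545 to 1699 FPKM in KO, without overlap. Of 16 glutathione synthesis and recycling genes 1 was higher and 6 were lower. Of 9 fibroblast and stellate markers tested, 1 was higher in KO (Dcn) and 5 were lower (Pdgfra, Postn, Acta2, Rgs5 and Thy1), and their summed level overlapped, at 5189.8 to 6941 FPKM in WT and 4701 to 6695 FPKM in KO. Thy1, a fibroblast surface marker, was at 456 to 564 FPKM in WT and 81.6 to 99.9 FPKM in KO. Summed endothelial markers were at 67.6 to 76.1 FPKM in WT and 2.85 to 5.85 FPKM in KO. Summed hepatocyte markers were at 2.19 to 3.85 and 103 to 130 FPKM, nearly all from Trf, the transferrin gene, with Alb and Hnf4a at or near 0. The part of these differences in the Ugt1a levels was not tested.

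Over 3 days, 9 of 19 members changed between days 1 and 3 in WT fibroblasts (27.1% of all genes) and 11 in KO (26.6%), by small amounts. The genotypes differed in this change for 9 members (24.9% of all genes). Ugt1a6a fell by 0.33 in WT and rose by 0.31 in KO on the log2 scale, a difference of 0.64 (adjusted p = 1.5e-07), and Ugt1a7c fell by 0.36 and rose by 0.27, a difference of 0.63 (adjusted p = 6.93e-07). Gsta3 rose by 1.12 in KO, a difference of 1.09 from WT (adjusted p = 1.02e-07), and Gstt1 by 0.67 in KO, a difference of 0.54. Gsta3 and Ugt1a6b, both among the 9, reached the filter of 1 FPKM only through KO. With a mean of 0.032 FPKM in WT, Gsta3 had almost no room to change there, so its difference is in part fixed by the filter.

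No member had a called 24 h rhythm. In WT slices limma called 0 of 34 (1.98% of all genes), with 13 members and 19.5% of all genes at an unadjusted p under 0.05. In KO slices it called 0 of 36 (11.2%), with 4 members and 29.3% of all genes at an unadjusted p under 0.05. The genotype difference of the waves was called for 0 of 35 (4.13%), with 3 members and 22.9% of all genes at an unadjusted p under 0.05. In fibroblasts 0 of 16 were called in WT (0.0341%), 0 of 18 in KO (0%) and 0 of 19 for the difference (0.00664%). At an unadjusted p under 0.05 there were 0 members and 7.23% of all genes in WT fibroblasts, 1 member and 5.93% in KO, and 0 members and 4.68% for the difference. The lowest adjusted p values were 0.0662 for Gsta1 in WT slices, with an amplitude of 0.78 ± 0.20 on the log2 scale and a fitted peak at 7.26 h, and 0.0662 for Gsto1, the omega-class gene, in KO slices. With day as a factor in place of a linear trend, 5 members were called in WT slices (Gsta1, Gstp1, Gstp3, Gstt2 and Ugt2b35), where 13.2% of all genes were. The same fit called 1 member in KO slices (Gsto1; 16.8% of all genes) and 1 in KO fibroblasts (Gstp1; 1.22%). Without day 1 there were 2 in KO slices (Gsto1 and Ugt1a7c; 19.3% of all genes). The largest amplitude in WT slices was that of Gstm3, 1.58 ± 0.52 (adjusted p = 0.17).

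The fitted peaks in WT slices lay close together, although the waves did not pass the test. In a window from 4 to 8 h, chosen after seeing the values, lay the peaks of 28 of 34 members (82.4%) and 33.5% of all genes. Of hepatocyte markers 15 of 18 lay in it, of 11 macrophage markers 0. In KO slices 11 of 36 members (30.6%) and 19.2% of all genes lay in the window. The members share their libraries and tissue, so this is a description of these 24 libraries.

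Genes of the connected steps were compared between genotypes in the slices, where 5.23% of all genes were called. Of glutathione synthesis and recycling genes, 0 of 19 were called, and Glrx, the glutaredoxin gene, was at -0.89 and Oplah, which returns glutamate to the glutathione cycle, at -0.68, under the size limit. Of NRF2 targets 0 of 23 were called, by limma with the size limit. Among genes for the supply of UDP-glucuronic acid and for deconjugation, Gusb, the beta-glucuronidase gene, was lower (-1.40). Of xenobiotic receptors and their P450 targets 2 were higher, Cyp2c37 (1.80) among them, and 3 lower of 20, and of conjugate transporters 3 were higher, Slco1a4 (1.10) among them, and 1 lower, Abcb1a (-1.12), of 15. Of sulfotransferases and other conjugation enzymes 2 were higher and 2 lower, Papss2 (-1.23) among them, of 17. Among clock and PAR bZIP regulators 3 were higher and 3 lower of 16, with Cry1 at 1.44, Nr1d2 at -1.68, Nr1d1 at -2.0 and Dbp, a factor that binds the D-box, at -1.64. In the short course 18.7% of all genes were called, 7.75% higher and 11% lower. The same lists, apart from the sulfotransferases and other conjugation enzymes, gave 3 higher and 4 lower of 17 glutathione genes. They gave 1 and 4 of 22 NRF2 targets, 0 and 3 of 8 UDP-glucuronic acid genes and 4 and 5 of 18 xenobiotic genes. Transporters gave 1 and 0 of 16 and clock regulators 6 and 6 of 16, Dbp at -3.75 among them. At T00 the sulfotransferases and other conjugation enzymes had sums of 3073 to 3587 FPKM in WT and 4967 to 5308 FPKM in KO. The xenobiotic list had 1637 to 2879 and 5299 to 6479 FPKM. Neither overlapped at T00, and both did at T24. Clock regulators were lower at T00, at 206 to 226 FPKM in WT and 173 to 197 FPKM in KO, and the other lists of this paragraph overlapped.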

How the data were processed

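Poly(A) RNA from WT and Bmal1-/- mouse fibroblasts and liver was sequenced as stranded single reads of 50 bases, per the labels. The submitters' processing notes name TopHat2 2.1.0, Cuffdiff and the build GRCm38. The values in the 3 deposited tables are gene-level FPKM, made by the authors. The sources used here give neither the scaling between libraries, nor the annotation release, nor the read depth, so no counting error could be set beside a value. Gene IDs had a symbol for 47219 of 47633 fibroblast genes, 47218 of 47632 slice genes and 47217 of 47631 short-course genes, and 118 fibroblast genes whose status was not OK were left out. Coordinates are from GENCODE vM21 on GRCm38.

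FPKM was tested as log2(FPKM + 1) with limma 3.58.1 (trend) in R 4.3.3, on genes with a mean of 1 FPKM or more, with Benjamini-Hochberg adjustment over all genes tested. A pseudocount of 1 understates changes of low genes. Fits used 8 group means in the short course. In the long courses they used 24 h cosine and sine and linear time by genotype, and means per day for day 3 against day 1. Calls needed an adjusted p below 0.05, and for genotype in the long courses also a log2 difference of at least 1. The pipeline was tested on simulated data. All members are named by class, values are given for called members with higher levels, and from each other gene list up to 4 genes of lowest p in slices. The members and lists were chosen with earlier results of these data known. Alternatives were another pseudocount, no filter, rescaling, leaving out replicates, days or time points, blocks and 1 mean per genotype and number. Leaving out the library KO 2 at T24 was chosen after seeing the data. One gene of the UDP-glucuronic acid list is not reported here.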

Additional observations from a re-analysis of the deposited data

Results flagged for a closer look

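Some changes over time differed between the genotypes by a test of the difference itself. In short-course liver, the F test of genotype by time gave adjusted p values of 0.0123 for Gsta1 and 0.0279 for Gstm3. The change from T00 to T12 differed for Gsta1 by -1.50 on the log2 scale (KO minus WT). The change from T00 to T24 differed for Gstm3 by -4.81, for Gstp3 by -2.40 and for Gstm2 by -2.22.

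In fibroblasts, the change from day 1 to day 3 differed in 9 of 19 members, where it did in 24.9% of all genes. Differences are given as KO minus WT on the log2 scale. The values were 1.09 for Gsta3, 0.64 for Ugt1a6a, 0.63 for Ugt1a7c, 0.54 for Gstt1, 0.46 for Ugt1a6b, 0.29 for Gstt3, 0.28 for Gstm5, 0.23 for Gstm2 and -0.51 for Gstm7. Of these, Gsta3 and Ugt1a6b reached the filter of 1 FPKM only through KO, so their differences are in part fixed by the filter. Groups held 3 libraries per time in the short course and 1 value per time point elsewhere, so no group was searched for a single outlying sample.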

How the results depend on the processing

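No called member changed direction under the alternatives that were run. In the slices Gsto1 (-0.31) and Gsta3 (-0.30), which had passed by adjusted p alone, were at 0.10 and 0.11 when rescaled. In the fibroblasts the 12 members called between genotypes stayed at 11 to 12 with any day or time point left out. In the slices the count of 9 was 26 with no size limit and 6 to 11 with a day or time point left out. In the short course the 12 became 6 with 1 mean per genotype and replicate number and 10 to 16 with a replicate left out. At single times, leaving out a replicate gave 5 to 8 at T00, 1 to 5 at T06, 1 to 5 at T12 and 2 to 9 at T24, and no filter gave 3 at T06. The time tests called 15 to 29 members in WT and 25 to 29 in KO with a replicate left out. Genotype by time gave 0 to 3 with a replicate left out, 1 with no filter and 1 without the library KO 2 at T24, which was left out after seeing the data. Rhythm counts of 0 became 5 in WT slices, 1 in KO slices and 1 in KO fibroblasts with day as a factor, and 0 to 2 in KO slices with a day left out. The causes were not tested, beyond fewer samples or more genes tested.

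The replicate block gave 13 members for genotype in the short course (Ugt1a1 gained), 31 and 30 for time in WT and KO and 2 for genotype by time, and the time point as replicate block gave 9 in slices and 12 in fibroblasts. Same-numbered short-course libraries correlated in their deviations by -0.08 to 0.22 within KO, -0.02 to 0.11 within WT and -0.11 to 0.09 across genotypes. The main fits did not take the numbers to pair samples. The labels do not say whether a number marks an animal, and low correlations cannot exclude it. If it does, libraries of 1 number are not independent, and the main genotype test counts them as if they were. The 6 members called with 1 mean per genotype and replicate number do not rest on that. Depth is unknown, so what it limits could not be given.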
